A study of Mus musculus with 10 samples.

Results

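The genes described here code for the fibroblast growth factors (FGFs), their receptors and the Sprouty and Spred proteins that damp their signal. They were chosen by name: every row of the array table that names a single gene called Fgf with a number, Fgfr1 to Fgfr4, Fgfrl1, Spry1 to Spry4 or Spred1 to Spred3, and for a gene with several rows the brightest by its mean over all samples. This gave 34 of the 19938 genes that have a row of their own, of which 18 are secreted and 4 intracellular FGFs, 5 are receptors, 4 are Sprouty and 3 are Spred genes. FGFs are small proteins, most of them secreted, that bind receptor tyrosine kinases at the cell surface together with heparan sulfate. The receptors signal through Ras and MAP kinase. Sprouty and Spred proteins hold that cascade back, and several Sprouty genes are themselves induced by it. In the embryonic heart FGFs from the epicardium and endocardium are known to drive growth of the myocardium, and FGFs of the pharynx and second heart field build the outflow tract.

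The study asked what the coxsackie-adenovirus receptor (CAR), a cell adhesion protein encoded by Cxadr, does in the embryonic heart. Messenger RNA was measured in whole hearts of E10.5 mouse embryos, 5 samples of CAR KO (CAR -/-) and 5 of WT (CAR +/+) embryos, each a pool of 3 untreated hearts. Embryos came from crosses of CAR +/- mice of the line B6.Cg-Cxadr tm1/Fgr. The knockout is global and not limited to the heart, and such embryos die in mid-gestation. The labels number the samples of each genotype 1 to 5 and do not say whether samples share litters. The p-values treat the samples as independent, which these labels cannot show. Affymetrix Mouse Gene 1.0 ST arrays give a signal per transcript cluster, that is, over the probes that lie along the exons of a gene, and all signals are on the log2 scale as deposited. Because probes differ between genes, a signal is set only against the same gene in other samples, apart from a rough background level defined further on.

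Array medians lay between 7.65 and 7.73, and correlations between samples between 0.9842 and 0.9962. Cxadr, the check of the knockout, had 6.69, 6.56, 6.37, 6.47 and 6.23 in CAR KO samples 1 to 5, against 8.28, 8.25, 8.46, 8.66 and 8.24 in WT samples 1 to 5. The genotypes did not overlap, and the log2 fold change of CAR KO over WT was -1.91 (adjusted p = 1.40e-05 from limma, lower in 5 of 5 CAR KO samples). Over 28944 transcript clusters it was the 1 call, 0.00345% of the array, where a call means an adjusted p under 0.05 in limma with Benjamini-Hochberg adjustment over all clusters. The samples of a genotype differed in markers of neighbouring tissues. The mean signal of 14 liver and yolk sac markers ranged from 6.94 to 10.20 over CAR KO samples and from 7.38 to 9.25 over WT samples, and that of 14 foregut and pharyngeal epithelium markers from 7.59 to 8.43 over CAR KO samples and from 7.48 to 8.45 over WT samples. Sample 5 of each genotype had the highest mean of both lists and the lowest mean of the 13 cardiomyocyte markers, which was 12.78 in CAR KO and 12.88 in WT. All 13 were above the background level defined further on.

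No gene of the FGF system passed the test between CAR KO and WT hearts once all clusters were allowed for. Of the 34 genes 0 were called, the smallest adjusted p being 1.0 in limma, beside 0.00345% of all clusters. At an unadjusted p under 0.05 there were 2, Fgf2 and Fgf18, both with less signal in CAR KO. This is 5.88% of the genes, against 2.40% of all clusters in either direction and 1.43% of all clusters with less signal in CAR KO. The number of genes whose genotypes did not overlap was 0, against 0.359% of all clusters. The log2 fold changes ran from -0.34 for Fgf1 to 0.29 for Fgf12, with 20 genes below and 14 above 0 and a median of -0.0076, beside 0.0108 over all clusters. For 32 of the 34 genes (94.1%) the 95% confidence interval stayed inside 1.5-fold in both directions, a share of 97.3% over all clusters. The exceptions were Fgf1 and Fgf12. A narrower limit of 1.2-fold held the interval for 14 of the 34 genes, against 60.6% of all clusters.

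**Figure D1:**
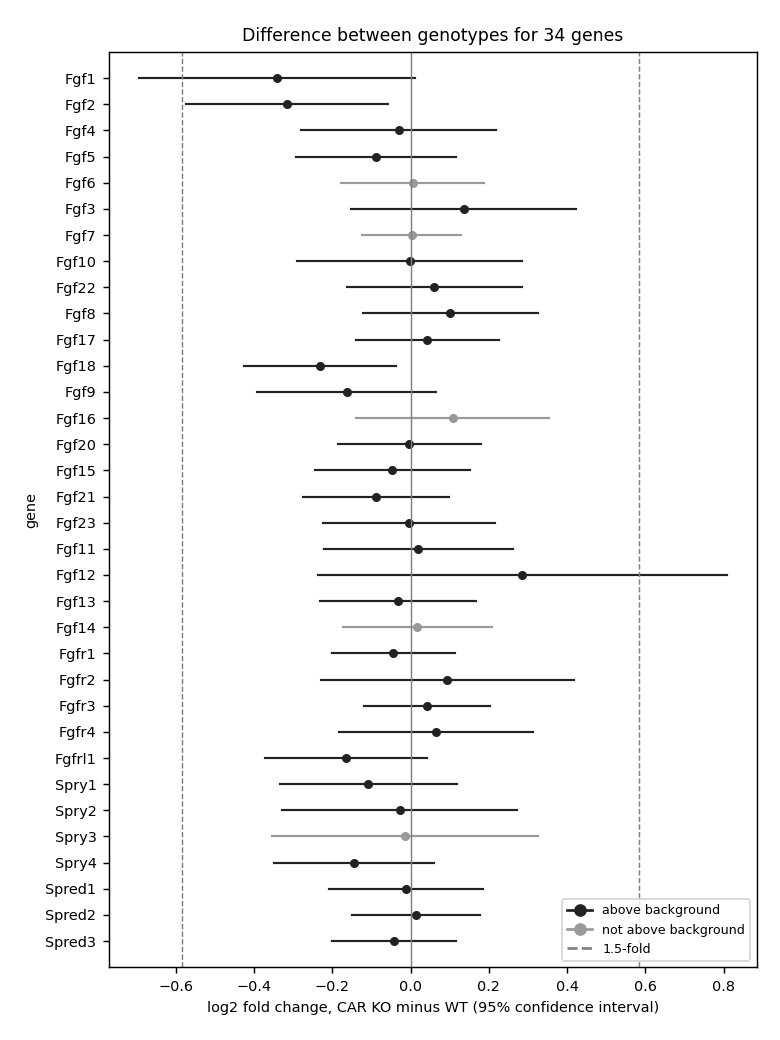
Log2 fold change of CAR KO over WT (x axis) for each of the 34 genes (y axis), with its 95% confidence interval from limma over 5 samples of each genotype. Dashed lines mark 1.5-fold in either direction, and the intervals of Fgf1 and Fgf12 pass them while those of the other 32 genes do not.

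Most of the genes had a mean signal above a background level taken from other genes. As probes differ between genes, passing this level does not by itself show that a gene is expressed. At the 99th percentile of the clusters named next, 20 genes passed. A gene was taken as above background where its mean signal over all samples exceeded 6.51, the 95th percentile of 1210 clusters of odorant and vomeronasal receptors, and 29 of the 34 did. The 5 below it were Fgf6, Fgf7, Fgf16, Fgf14 and Spry3, so that in whole hearts of this stage their signals cannot be told from background. Their differences between the genotypes ran from -0.01 to 0.11. The standard deviation of a gene over all 10 samples ran from 0.07 for Fgf7 to 0.45 for Fgf12, with a median of 0.1333 over all clusters. In whole hearts, fewer cells of a type and less RNA per cell cannot be told apart.

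**Figure D2:**
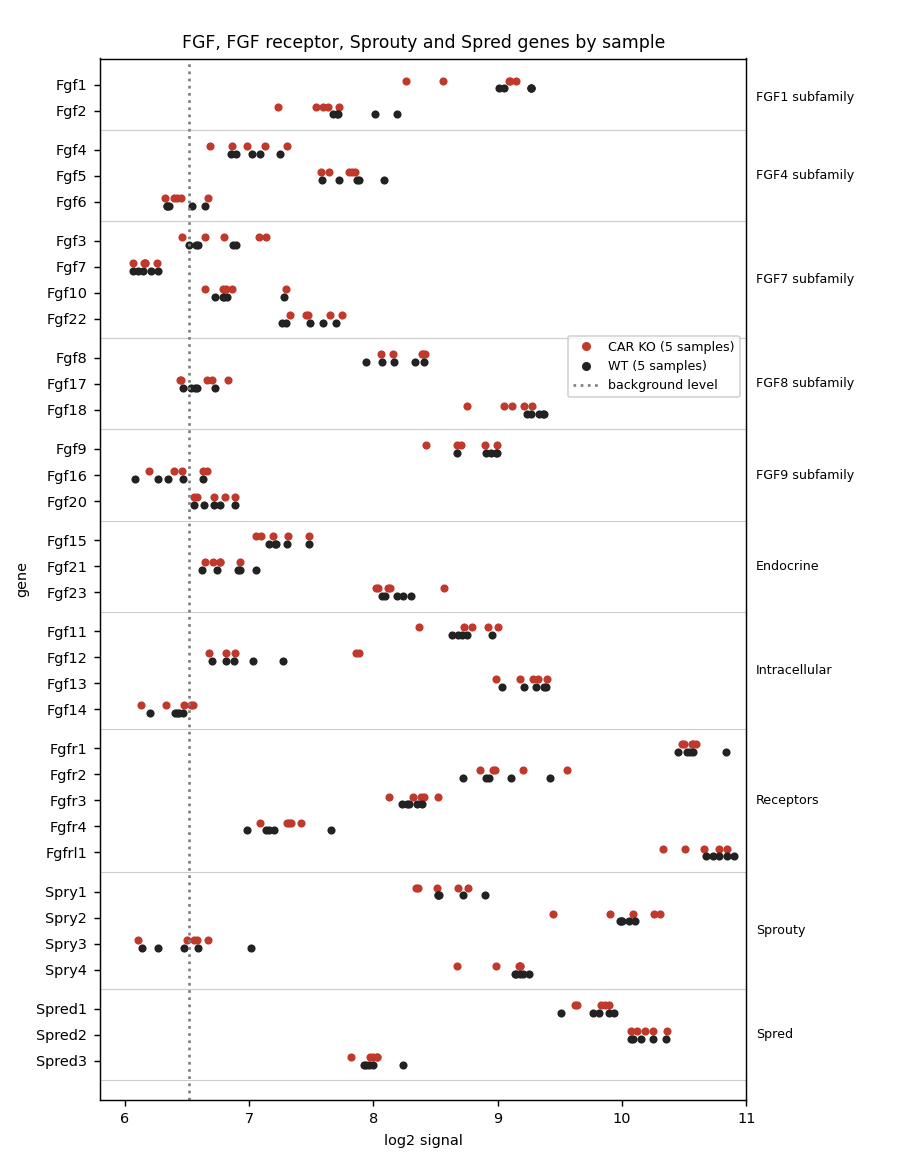
Log2 signal (x axis) of the 34 genes (y axis) in each of the 5 CAR KO samples (red) and 5 WT samples (black), grouped by role, with the background level of 6.51 dotted. The ranges of the red and black points overlap for every gene, and the 5 genes whose points centre left of the dotted line are Fgf6, Fgf7, Fgf16, Fgf14 and Spry3.

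Among the secreted ligands, the FGF1 subfamily had the lowest median difference of any role, -0.33 over its 2 genes. Both lack a classical signal peptide and leave the cell by other routes. Fgf2 (transcript cluster 10491699, chromosome 3), a mitogen for many mesodermal cells including endothelium, had 7.72, 7.63, 7.54, 7.59 and 7.23 in CAR KO samples 1 to 5, against 7.67, 7.71, 7.72, 8.01 and 8.19 in WT samples 1 to 5. In 4 of the 5 CAR KO samples the signal lay below every WT sample, CAR KO sample 5 was the lowest and WT samples 4 and 5 were the highest. The means were 7.54 ± 0.19 in CAR KO and 7.86 ± 0.23 in WT (SD, n = 5 each), with a log2 fold change of -0.32 (standard error 0.12, 95% confidence interval -0.57 to -0.06, unadjusted p = 0.0205 and adjusted p = 1.0 from limma), a ratio of 0.803. The unadjusted p was 0.0514 without WT sample 5 and 0.0517 without WT sample 4, and without both samples numbered 5 the difference was -0.16. Nudt6, whose transcript runs antisense to Fgf2 and overlaps it, differed by 0.01 (unadjusted p = 0.923 from limma).

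Fgf1, the ligand that binds all FGF receptors, had 9.09, 9.10, 8.56, 9.14 and 8.26 in CAR KO samples 1 to 5, against 9.01, 9.27, 9.27, 9.27 and 9.05 in WT samples 1 to 5. CAR KO samples 3 and 5 lay below every other sample, and the other 3 CAR KO samples lay within the range of WT. The log2 fold change was -0.34 (95% confidence interval -0.70 to 0.01, unadjusted p = 0.0566 from limma), and it was -0.20 without CAR KO sample 5.

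In the FGF4 subfamily no gene passed an unadjusted p under 0.05, and the interval lay within 1.5-fold for all 3. Fgf5, known for ending the growth phase of hair, had 7.65, 7.83, 7.85, 7.58 and 7.80 in CAR KO samples 1 to 5, against 7.72, 7.59, 7.88, 7.87 and 8.09 in WT samples 1 to 5. The samples of both genotypes ran through each other, with WT sample 5 highest, and the difference was -0.09. Fgf4, a ligand of early embryos and limb buds, differed by -0.03 and Fgf6 by 0.01.

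The FGF7 subfamily, whose members signal mainly to epithelia, had differences from -0.00 to 0.14. Fgf22, which organises synapses, had 7.46, 7.75, 7.48, 7.65 and 7.33 in CAR KO samples 1 to 5, against 7.60, 7.70, 7.27, 7.49 and 7.30 in WT samples 1 to 5. No order by genotype was seen, and the difference was 0.06. Fgf3, needed for the inner ear, had 6.80, 7.08, 6.64, 7.13 and 6.46 in CAR KO samples 1 to 5, against 6.87, 6.90, 6.57, 6.59 and 6.52 in WT samples 1 to 5. CAR KO samples 2 and 4 were the highest and CAR KO sample 5 the lowest of all 10, and the difference was 0.14 (95% confidence interval -0.15 to 0.42). Fgf10, a marker of the second heart field and the ligand of lung and limb buds, is given by sample by a choice made after its values were seen. It had 6.79, 6.81, 6.86, 6.65 and 7.29 in CAR KO samples 1 to 5, against 6.79, 6.73, 6.82, 6.80 and 7.28 in WT samples 1 to 5. Sample 5 of each genotype stood above the other 8, at almost the same signal, and the difference between the genotypes was -0.00. Fgf7 differed by 0.00 and was not above background.

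Within the FGF8 subfamily Fgf18 had an unadjusted p under 0.05 and Fgf8 and Fgf17 did not, though whether these genes differ from each other was not tested. Fgf18 (transcript cluster 10385036, chromosome 11), known for its part in skeletal and lung growth, had 9.05, 9.28, 9.21, 8.76 and 9.11 in CAR KO samples 1 to 5, against 9.27, 9.23, 9.36, 9.37 and 9.33 in WT samples 1 to 5. In 4 of the 5 CAR KO samples the signal lay below every WT sample, with CAR KO sample 4 farthest down, and the WT samples lay close together. The means were 9.08 ± 0.20 in CAR KO and 9.31 ± 0.06 in WT (SD, n = 5 each), with a log2 fold change of -0.23 (standard error 0.09, 95% confidence interval -0.43 to -0.04, unadjusted p = 0.0239 and adjusted p = 1.0 from limma), a ratio of 0.852. Without CAR KO sample 4 the difference was -0.15 (unadjusted p = 0.0416), and without WT sample 4 the unadjusted p was 0.0512. Fgf8, the ligand of the pharyngeal arches and outflow tract, was named after its values were seen and had 8.16, 8.40, 8.39, 8.41 and 8.06 in CAR KO samples 1 to 5, against 8.33, 8.40, 8.07, 8.16 and 7.94 in WT samples 1 to 5. The genotypes overlapped over most of their range, and the difference was 0.10 (95% confidence interval -0.12 to 0.33). Fgf17, a close relative of Fgf8, differed by 0.04.

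Markers of the epicardium, the outer layer of the heart, had lower means in CAR KO, as Fgf2 and Fgf18 did. This held for all 7 markers, and 4 of them had an unadjusted p under 0.05 in limma: Aldh1a2, which makes retinoic acid (-0.57), Upk3b (-0.46), Tbx18 (-0.31) and Upk1b (-0.22). The mean of the list ranged from 9.47 to 9.96 over CAR KO samples and from 9.85 to 10.07 over WT samples. Of the 7 markers 0 were called (adjusted p = 1.0 for each in limma). At an unadjusted p under 0.05 in limma there were 2.40% of all clusters in either direction and 1.43% with less signal in CAR KO. None of the markers was at background. The part of the epicardium in the values of Fgf2 and Fgf18 was not tested.

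In the FGF9 subfamily, Fgf9, a ligand from epicardium and endocardium that acts on the mouse myocardium, had 8.99, 8.70, 8.67, 8.90 and 8.42 in CAR KO samples 1 to 5, against 8.90, 8.94, 8.996, 8.99 and 8.68 in WT samples 1 to 5. CAR KO sample 5 was the lowest, and in WT sample 5 was the lowest too. The difference was -0.16 (95% confidence interval -0.39 to 0.07, unadjusted p = 0.146 from limma), and -0.08 without CAR KO sample 5. Fgf16, also known from the mouse heart, differed by 0.11 and was not above background, and Fgf20 differed by -0.00.

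The endocrine FGFs act at a distance with Klotho proteins as coreceptors, and all 3 had differences between -0.09 and -0.00. Fgf23, the phosphate-regulating hormone, had 8.03, 8.57, 8.02, 8.13 and 8.12 in CAR KO samples 1 to 5, against 8.07, 8.24, 8.09, 8.30 and 8.19 in WT samples 1 to 5. CAR KO sample 2 stood above the rest, the other samples ran through each other, and the difference was -0.00. Fgf21, a metabolic hormone best known from liver, had 6.71, 6.76, 6.77, 6.93 and 6.65 in CAR KO samples 1 to 5, against 6.91, 7.05, 6.62, 6.93 and 6.74 in WT samples 1 to 5. The highest 4 signals held 3 WT samples and CAR KO sample 4, and the difference was -0.09. Fgf15 differed by -0.05. It lies on chromosome 7, as Fgf3 and Fgf4 do, and the differences of these 3 genes were -0.05, 0.14 and -0.03.

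The FGF homologous factors Fgf11 to Fgf14 stay in the cell and bind voltage-gated sodium channels. Fgf13, the one best known from heart muscle of mice, had 9.32, 9.28, 9.18, 9.40 and 8.98 in CAR KO samples 1 to 5, against 9.21, 9.37, 9.39, 9.31 and 9.04 in WT samples 1 to 5. Both genotypes had their lowest signal in sample 5, and the difference was -0.03 (95% confidence interval -0.23 to 0.17). Fgf12 varied most among all 34 genes, with 6.81, 7.89, 7.86, 6.67 and 6.89 in CAR KO samples 1 to 5, against 7.03, 6.87, 6.81, 7.27 and 6.70 in WT samples 1 to 5. CAR KO samples 2 and 3 stood above all others, and the other 3 CAR KO samples lay within or near the range of WT. The difference was 0.29 with an interval of -0.24 to 0.81 (unadjusted p = 0.256 from limma), so for Fgf12 a 1.5-fold higher level in CAR KO cannot be told from none with these arrays. Without CAR KO sample 2 it was 0.12. Fgf11 differed by 0.02, and Fgf14, not above background, by 0.02.

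**Figure D3:**
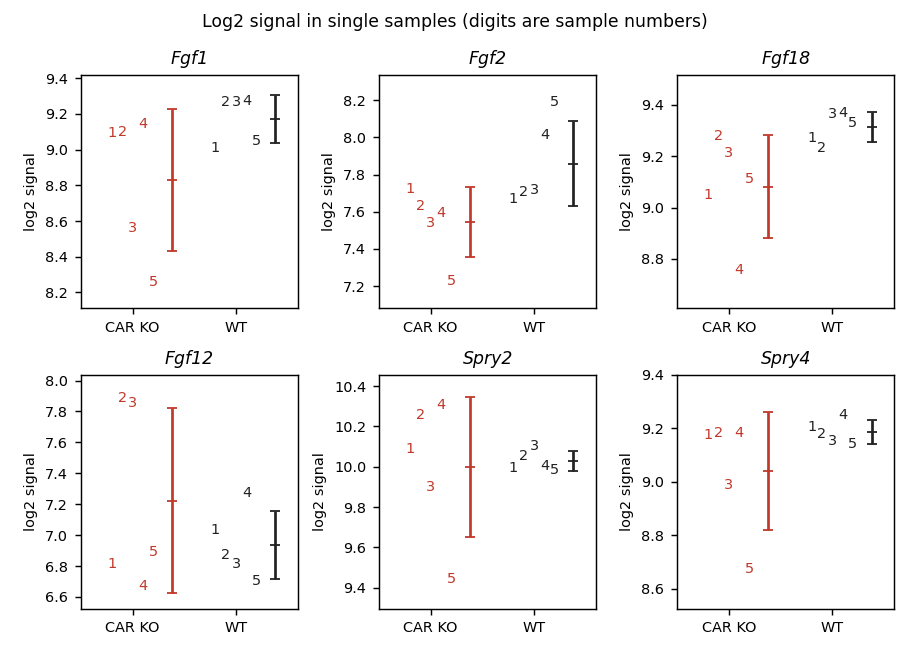
Log2 signal (y axis) of 6 genes in each CAR KO sample (red, left) and WT sample (black, right), with digits as sample numbers and bars for the mean ± SD of 5 samples. In Fgf2 and Fgf18, 4 of the 5 red digits lie lower than all black ones, and in Fgf1, Spry2 and Spry4 CAR KO sample 5 lies lowest.

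All 5 receptor genes were above background, and their differences ran from -0.16 to 0.09 with intervals within 1.5-fold. Fgfrl1, a receptor that lacks the kinase domain, had 10.84, 10.66, 10.51, 10.78 and 10.33 in CAR KO samples 1 to 5, against 10.78, 10.67, 10.74, 10.84 and 10.90 in WT samples 1 to 5. CAR KO samples 3 and 5 were the lowest, and the other CAR KO samples lay in or close to the WT range. The difference was -0.16 (95% confidence interval -0.37 to 0.04, unadjusted p = 0.108 from limma), and -0.09 without CAR KO sample 5. The kinase receptors Fgfr1 to Fgfr4 were named after their values were seen.

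Fgfr1, the main receptor of mesodermal tissues, had 10.57, 10.59, 10.501, 10.48 and 10.57 in CAR KO samples 1 to 5, against 10.55, 10.45, 10.57, 10.53 and 10.84 in WT samples 1 to 5. The CAR KO samples kept between 10.48 and 10.59, WT sample 5 was the highest, and the difference was -0.04 (95% confidence interval -0.20 to 0.11). Fgfr2, of which 1 splice form serves epithelia, had 8.98, 8.96, 9.20, 8.86 and 9.55 in CAR KO samples 1 to 5, against 8.72, 8.90, 9.10, 8.93 and 9.42 in WT samples 1 to 5. Samples 5 and then 3 were the highest in both genotypes, and the difference was 0.09. Fgfr3 differed by 0.04 and Fgfr4 by 0.06.

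The Sprouty genes, several of which FGF signalling is known to induce, had differences from -0.14 to -0.01. All 4 intervals lay within 1.5-fold. Of the Sprouty genes 0 had an unadjusted p under 0.05 in limma, and whether they follow FGF signalling in these hearts was not tested. Spry2 had 10.09, 10.26, 9.90, 10.31 and 9.45 in CAR KO samples 1 to 5, against 9.99, 10.05, 10.10, 10.004 and 9.98 in WT samples 1 to 5. The WT samples kept between 9.98 and 10.10, while the CAR KO samples lay on both sides of them and CAR KO sample 5 was far below. The difference was -0.03 (95% confidence interval -0.33 to 0.27), and it was 0.11 without CAR KO sample 5. Spry4 had 9.17, 9.18, 8.99, 9.18 and 8.68 in CAR KO samples 1 to 5, against 9.21, 9.18, 9.15, 9.25 and 9.14 in WT samples 1 to 5. Again the WT samples lay close together, and CAR KO samples 3 and 5 lay below all of them. The difference was -0.14 (unadjusted p = 0.15 from limma), and -0.05 without CAR KO sample 5. Spry1 differed by -0.11. Spry3, named after its values were seen, had 6.55, 6.58, 6.499, 6.11 and 6.67 in CAR KO samples 1 to 5, against 6.27, 6.13, 6.59, 6.47 and 7.01 in WT samples 1 to 5. Its mean was not above background, WT sample 5 was the highest, and the difference was -0.01.

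The Spred proteins, which bind neurofibromin and restrain Ras, had differences from -0.04 to 0.01 in their brightest clusters, and all 3 intervals lay within 1.2-fold. Spred2 was the 1 gene of the 34 with more than 1 cluster of its own, and its brightest had 10.12, 10.25, 10.18, 10.07 and 10.36 in CAR KO samples 1 to 5, against 10.09, 10.07, 10.25, 10.16 and 10.36 in WT samples 1 to 5. Sample 5 was the highest of each genotype, and the difference was 0.01. Its other cluster averaged 9.70 ± 0.17 in CAR KO and 9.50 ± 0.22 in WT (SD, n = 5 each), a difference of 0.21 (95% confidence interval -0.04 to 0.45, unadjusted p = 0.0902 and adjusted p = 1.0 from limma), and the mean over both clusters differed by 0.11. Spred3 had 8.03, 8.03, 7.999, 7.97 and 7.82 in CAR KO samples 1 to 5, against 7.99, 7.97, 7.94, 7.92 and 8.24 in WT samples 1 to 5. In CAR KO sample 5 was the lowest and in WT it was the highest, the other 8 samples lay between 7.92 and 8.03, and the difference was -0.04. Spred1 differed by -0.01.

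Samples of the same genotype differed from each other along with epithelial markers in 4 genes. After their values were seen, the signal of each of the 34 genes was compared over the 10 samples with the mean of the foregut and pharyngeal epithelium markers and with that of the epicardium markers, 68 relations in all, by Pearson and Spearman correlation with permutation tests and Benjamini-Hochberg adjustment. All 4 that passed an adjusted p under 0.05 by Pearson's r were with the foregut list. Spred2 had r = 0.967 (permutation p = 3e-05, adjusted p = 0.00204) and rho = 0.939 (permutation p = 0.00018, adjusted p = 0.0122). Fgfr2 had r = 0.915 (permutation p = 0.00017, adjusted p = 0.00578) and rho = 0.891 (permutation p = 0.00121, adjusted p = 0.0227). Fgf10 had r = 0.859 (permutation p = 0.00066, adjusted p = 0.0112) and rho = 0.879 (permutation p = 0.00167, adjusted p = 0.0227). The same held for Spry3, which was not above background, with r = 0.860 (permutation p = 0.0005, adjusted p = 0.0112) and rho = 0.879 (permutation p = 0.0016, adjusted p = 0.0227). Fgf10, with a mean of 6.88 over all samples, was not among the 20 genes above the 99th percentile of the receptor clusters.

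Without CAR KO sample 5 and WT sample 5, the samples farthest from the median of the marker mean, r was 0.915 for Spred2 (exact permutation p = 0.00255), 0.793 for Fgfr2 (exact permutation p = 0.0154), 0.773 for Spry3 (exact permutation p = 0.0304) and 0.653 for Fgf10 (exact permutation p = 0.0725). For Fgf10 the p no longer passed 0.05 without those samples. After each genotype's mean was taken off it was 0.980, 0.911, 0.888 and 0.883. The other cluster of Spred2, outside the 68 relations and added later, had r = 0.648 (permutation p = 0.0413) and rho = 0.648 (permutation p = 0.0479) with the same list, and 0.636 after the genotype means were taken off. The marker list held keratins and epithelial adhesion genes such as Krt8, Krt18, Epcam and Cdh1, all 14 above background, of which 0 had an unadjusted p under 0.05 between the genotypes. Grhl2, Nkx2-1, Sox2, Epcam, Pax9 and Esrp1 had means from 6.66 to 7.17, below Fgfr4 (7.26), which did not pass at the 99th percentile. Foxa1, Cdh1, Cldn6, Krt18, Krt8 and Krt19 had means from 7.75 to 10.87, above Fgf22 (7.50), which passed. The means of Shh and Foxa2 lay between those of Fgfr4 and Fgf22. The markers did not move alike. Over the 10 samples Cldn6, Esrp1, Cdh1, Foxa1 and Epcam ranged by 2.80, 2.54, 2.12, 1.98 and 1.83 on the log2 scale, and Nkx2-1, Shh and Foxa2 by 0.45, 0.34 and 0.32. Nkx2-1 and Pax9 were lowest in CAR KO sample 5 (6.49 and 6.81), and among WT samples Krt19 was lowest in sample 5 (10.65). No list beyond the foregut and epicardium markers was correlated, so the relation is not shown to be particular to epithelium. Sample 5 of each genotype was also highest for Prrx1 of the cushion mesenchyme list (10.45 in CAR KO, 10.30 in WT). The same held for Eya1 of the second heart field list (9.26 and 9.40), while Hand2 and Sox9 were highest in other samples. In each of the 10 samples the gene and the markers were read from the same pool of hearts and the same array. The part of epithelial tissue in the values of these genes was not tested.

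**Figure D4:**
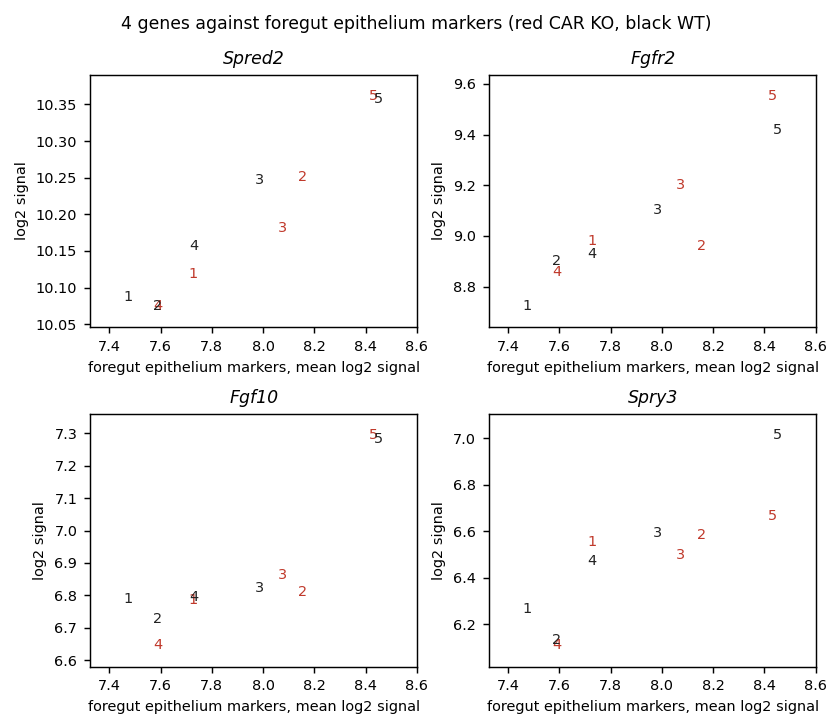
Log2 signal of Spred2, Fgfr2, Fgf10 and Spry3 (y axis, one panel each) against the mean log2 signal of 14 foregut and pharyngeal epithelium markers (x axis), with digits as sample numbers of CAR KO (red) and WT (black). In each panel samples 5 of both genotypes lie at the right, and red and black digits fall along the same course.

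With the epicardium list 0 relations passed by Pearson's r, and Fgf18 passed by Spearman's rho. It had r = 0.780 (permutation p = 0.00734, adjusted p = 0.0832) and rho = 0.879 (permutation p = 0.00148, adjusted p = 0.0227). The r was 0.847 without CAR KO samples 4 and 5, the farthest from the median of the marker mean, and 0.588 after each genotype's mean was taken off. The permutations moved samples between genotypes, and both Fgf18 and the markers had lower means in CAR KO. The test therefore cannot separate a shared difference between genotypes from a relation within them, and no p was computed within genotypes. Fgf1 and Fgf2 had r = 0.722 and r = 0.691 (permutation p = 0.0212 and 0.0263, adjusted p = 0.128 for both), with rho = 0.733 and 0.612 (adjusted p = 0.233 and 0.292). For Fgf2 the r was 0.390 without CAR KO samples 4 and 5.

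Promoter sequences are shown for Fgf2 and Fgf18, which had the smallest p, and for Spred2, Fgfr2 and Fgf10, which correlated with the mean of the epithelial markers. They come from RefSeq on the build GRCm38.p6, from 250 bases before to 50 after the annotated start, and are written 5′ to 3′ on the strand of the gene. For a gene with several annotated starts only the first listed is shown. Capitals mark matches on either strand to 4 motifs: CCGGAA of ETS factors, which carry the FGF signal to DNA, TGTTTAC of forkhead factors, GGGCGG or its complement CCGCCC of the GC box, and TATAAA of the TATA box. No matches overlap in these windows.
Fgf2, chr3:37348403-37348702, plus strand: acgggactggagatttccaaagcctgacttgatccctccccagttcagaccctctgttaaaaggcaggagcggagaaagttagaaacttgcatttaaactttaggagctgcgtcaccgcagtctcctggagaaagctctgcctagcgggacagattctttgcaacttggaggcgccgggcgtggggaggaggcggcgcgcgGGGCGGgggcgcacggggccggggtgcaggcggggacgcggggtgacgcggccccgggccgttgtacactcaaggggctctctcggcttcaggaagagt
Fgf18, chr11:33147351-33147650, minus strand: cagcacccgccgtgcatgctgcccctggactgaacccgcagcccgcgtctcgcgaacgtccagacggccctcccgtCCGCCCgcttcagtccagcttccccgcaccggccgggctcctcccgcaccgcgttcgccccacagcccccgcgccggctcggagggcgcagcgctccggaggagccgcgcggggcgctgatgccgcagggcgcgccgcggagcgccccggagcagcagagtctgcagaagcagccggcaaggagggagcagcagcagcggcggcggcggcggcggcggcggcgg
Spred2, chr11:19924192-19924491, plus strand: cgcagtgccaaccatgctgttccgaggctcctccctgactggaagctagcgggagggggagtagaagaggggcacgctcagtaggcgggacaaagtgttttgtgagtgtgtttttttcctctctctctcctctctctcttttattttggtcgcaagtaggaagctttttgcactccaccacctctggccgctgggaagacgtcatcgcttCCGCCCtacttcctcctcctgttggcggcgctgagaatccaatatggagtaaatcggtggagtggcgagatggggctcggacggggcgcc
Fgfr2, chr7:130266759-130267058, minus strand: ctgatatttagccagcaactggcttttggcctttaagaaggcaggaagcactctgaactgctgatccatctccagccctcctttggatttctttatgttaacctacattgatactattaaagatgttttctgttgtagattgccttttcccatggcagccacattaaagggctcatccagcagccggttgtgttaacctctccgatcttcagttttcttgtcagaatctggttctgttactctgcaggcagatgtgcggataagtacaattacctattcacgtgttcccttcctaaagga
Fgf10, chr13:118714449-118714748, plus strand: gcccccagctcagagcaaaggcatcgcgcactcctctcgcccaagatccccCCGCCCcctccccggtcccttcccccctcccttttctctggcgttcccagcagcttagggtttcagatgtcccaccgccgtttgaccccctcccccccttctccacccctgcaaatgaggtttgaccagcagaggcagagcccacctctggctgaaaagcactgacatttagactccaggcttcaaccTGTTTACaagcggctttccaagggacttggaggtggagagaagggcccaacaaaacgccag
The windows shown for Fgf2, Fgf18, Spred2 and Fgf10 each held 1 GC box, that of Fgf10 also held the forkhead motif, and that of Fgfr2 held none of the 4. The G and C share was 62.7% in Fgf2, 78.7% in Fgf18, 57.0% in Spred2, 43.7% in Fgfr2 and 60.7% in Fgf10. Of the 34 genes 25 matched the table, with 32 promoters among them. The ETS motif was found in 5 of the 32 promoters (15.6%), the forkhead motif in 1 (3.12%), the GC box in 22 (68.8%) and the TATA box in 3 (9.38%). Over all 32851 promoters of the same length the shares were 14.9%, 3.65%, 35.7% and 13.6%. A match is a run of letters and no evidence of binding.

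Beyond the ligands and receptors, the coreceptors and heparan sulfate genes had the lowest median of the 3 other groups of the pathway, and the targets of the signal had none that passed. Of 29 listed coreceptor and heparan sulfate genes 27 had a cluster of their own, 0 were called, and 3 had an unadjusted p under 0.05 in limma, all with less signal in CAR KO. This is 11.1%, against 2.40% of all clusters in either direction and 1.43% with less signal in CAR KO. The median difference was -0.05. Sulf1, which trims sulfate groups from heparan sulfate outside the cell, had 10.10, 10.22, 10.03, 9.85 and 9.85 in CAR KO samples 1 to 5, against 10.06, 10.24, 10.59, 10.45 and 10.62 in WT samples 1 to 5. WT samples 2 to 5 lay above every CAR KO sample, and WT sample 1 lay among the CAR KO samples. Its difference was -0.38 (95% confidence interval -0.63 to -0.13, unadjusted p = 0.00659 and adjusted p = 1.0 from limma).

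Sdc3, a syndecan that carries heparan sulfate on the cell surface, had 9.89, 9.73, 9.56, 9.73 and 9.47 in CAR KO samples 1 to 5, against 9.83, 9.83, 9.82, 9.90 and 9.93 in WT samples 1 to 5. Every CAR KO sample other than sample 1 had less than any WT sample, and the difference was -0.19 (unadjusted p = 0.0304 from limma). Gpc1, a glypican with the same role, differed by -0.14 (unadjusted p = 0.0453 from limma), and Gpc3, the brightest of the group, by -0.02. The epicardium markers described with Fgf18 had lower means in CAR KO as well, and their part in the values of Sulf1, Sdc3 and Gpc1 was not tested.

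Of 24 genes of the signalling cascade 18 had a cluster of their own, all above background, and 0 had an unadjusted p under 0.05 in limma. Their median difference was -0.03, and all 18 intervals lay within 1.5-fold. The smallest p belonged to Shc1, an adaptor of receptor kinases (-0.14, unadjusted p = 0.0696), and to Sos2, which activates Ras (-0.09). Map2k2, the MAP kinase kinase and brightest of the list, differed by -0.04. All 18 target and feedback genes had a cluster, 0 had an unadjusted p under 0.05, and their median difference was 0.02. The interval lay within 1.5-fold for 15 of them (83.3%, against 97.3% of all clusters). Those of Egr1 (-0.19 to 0.75), Ier3 (-0.26 to 0.75) and Shisa3 (-0.91 to 0.75) did not. Etv4, an ETS factor induced by FGF, had 8.16, 8.14, 8.05, 8.27 and 7.85 in CAR KO samples 1 to 5, against 8.08, 8.18, 8.49, 8.30 and 8.40 in WT samples 1 to 5. The highest was WT sample 3 and the lowest CAR KO sample 5, and the difference was -0.20 (unadjusted p = 0.0614 from limma). Spsb1 differed by -0.21 and Pea15a, the brightest of the list, by -0.10. Dusp6, the phosphatase that ends the MAP kinase signal, and Etv5 were added after their values were seen and differed by 0.06 and 0.00.

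**Figure D5:**
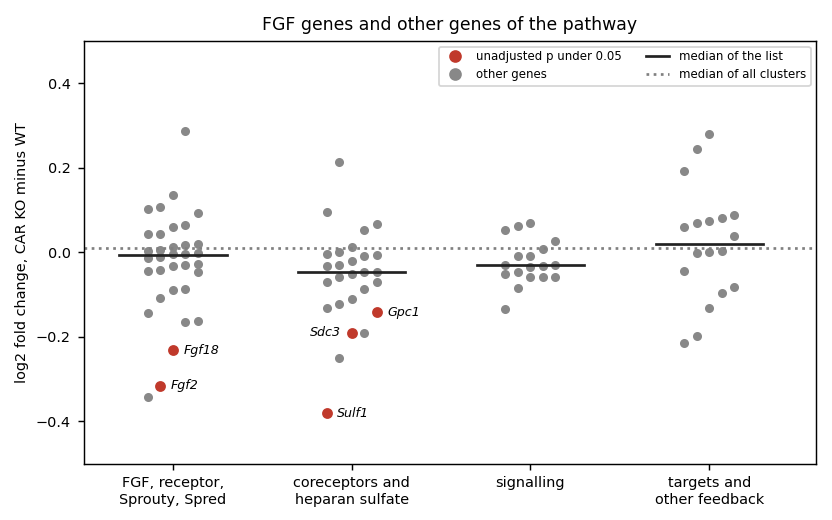
Log2 fold change of CAR KO over WT (y axis) for the 34 genes and for 3 lists of other pathway genes (x axis), each point a gene, red where the unadjusted p from limma is under 0.05, with the median of each list as a line and that of all clusters dotted. The 5 red points, Fgf2, Fgf18, Sulf1, Sdc3 and Gpc1, all lie below 0, and the list medians lie between -0.05 and 0.02.

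The other marker lists are set beside the 2.40% of all clusters with an unadjusted p under 0.05 in limma. The number was 1 of 13 for cardiomyocytes (7.69%, Myl2, less in CAR KO) and 1 of 7 for cushion mesenchyme (14.3%, Sox9, less in CAR KO). It was 0 for the 7 second heart field and outflow, 14 liver and yolk sac, 8 endothelium and endocardium, 5 neural and neural crest and 6 blood markers with a cluster.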

How the data were processed

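RNA of 5 CAR KO and 5 WT samples of pooled E10.5 hearts was hybridised to Affymetrix Mouse Gene 1.0 ST arrays. The authors deposited 1 table of normalized log2 signals for the 10 samples, in 35556 rows. MAS5 is the tool that the submitters' processing notes give, and how the log2 table was normalized is, in the sources used here, not given. After 6612 control rows were set aside by their identifiers, 28944 transcript clusters were tested, of which 21789 name 1 gene, 1621 name several genes and 5534 are unnamed here. Names come from the platform annotation, and no row with several genes names a gene of the FGF system. The authors' own averages and comparisons in their supplementary table were not used.

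CAR KO was compared with WT in R 4.3.3 by limma 3.58.1, with lmFit and eBayes on genotype alone, every cluster kept, and p-values adjusted over all of them by Benjamini-Hochberg. Correlations over samples were tested with 100000 permutations, two-sided, in scipy 1.17.1. The permutations take all samples of both genotypes as exchangeable, which shared litters or days would break. On simulated data for this comparison, with 50 of 28944 clusters changed at each size, 10% of 1.2-fold, 74% of 1.5-fold, 98% of 2-fold and 96% of 3-fold changes were called, with 5 false calls. All these changes were present at once, which eases the adjusted threshold. A lone changed gene would be called less often, and how much less was not simulated. The samples of these arrays differed together in markers of neighbouring tissues, and whether the same shares hold for them was not tested. The members and the gene lists were chosen with earlier results of these data known. Full values are given for the brightest gene and the gene with the smallest p of each role, and for genes of the FGF system with an unadjusted p under 0.05. The pathway lists name their brightest gene and the 2 with the smallest p, and other genes were named after their values were seen. Repeats of the comparison rescaled the arrays (by quantiles or to equal medians), restricted it to the brighter clusters (above the 40th percentile) or to those with 1 gene name, and used eBayes with an intensity trend and robust prior, the methods' t-test, or array weights. Others took the sample number as a block, marker means as covariates, the mean over a gene's clusters or other background percentiles, or left samples out. The number of arrays limits the precision.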

Additional observations from a re-analysis of the deposited data

Results flagged for a closer look

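In groups of 5 samples, a sample was singled out where its gap to the nearest other sample took up more of the group's range than chance alone allows in about 1 of 20 groups. Over the 34 genes and both genotypes 68 groups were examined, 5 samples were singled out, and chance gives about 3.4. Sample 5 accounts for 4 of them. Spred3 was lowest in CAR KO sample 5, at 7.82, with a gap of 0.723 of the range, and highest in WT sample 5, at 8.24, with a gap of 0.781 of the range. Fgf10 was highest in WT sample 5 (7.28, gap 0.829 of the range), and CAR KO sample 5 had 7.29. Fgf14, not above background, was lowest in WT sample 5 (6.20, gap 0.764 of the range). Fgf23 was highest in CAR KO sample 2 (8.565, gap 0.794 of the range).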

How the results depend on the processing

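Of the 34 genes 0 were called under any alternative tried, where the filter on dim clusters kept 23 of them. The whole array had 2 calls with array weights and 1 under each of the other settings that refitted all clusters. The number of genes with an unadjusted p under 0.05 in limma, 2 as reported, was 4 with the replicate block and 0 without both samples numbered 5 (an alternative chosen after seeing the data), as well as 0 without the 3 samples richest in liver transcripts. Leaving out single samples gave 0 (without WT sample 4) to 5 (without CAR KO sample 1). Same-numbered samples did not all deviate together (correlations from 0.073 to 0.561, 4 of 5 highest with their own number), a hint of pairing from the data, while the labels give no shared litter or day. The 2 genes added under the block were Fgf1 (unadjusted p = 0.0261 in limma) and Fgf9 (0.046). The median of the 34 genes was 0.0126 without both samples numbered 5 and 0.0192 without the liver-rich samples, with -0.0316 to -0.0027 under the other settings that kept all samples, and leaving out single samples gave -0.0461 (without CAR KO sample 2) to 0.0079 (without WT sample 2).

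Fgf2 and Fgf18 kept their direction in all 23 alternatives, with differences from -0.3633 to -0.1557 and from -0.2807 to -0.1504. Their unadjusted p was 0.093 and 0.0509 without both samples numbered 5, and 0.0852 and 0.053 without the liver-rich samples. Among the 16 genes followed through the alternatives the sign turned for 5 with differences close to 0, and the cause was not tested. Spred2 kept its sign with the mean over both its clusters, at 0.1093. With array weights Spred2 had -0.0206, Spred3 0.0355 and Spry2 0.0485. With the foregut epithelium mean as covariate Fgf13 had 0.0146, Spred2 -0.0333 and Spry2 0.0232. Without the liver-rich samples Fgf23 had 0.0349, Spred2 -0.0068, Spred3 0.0556 and Spry2 0.1044. Without both samples numbered 5 Fgf23 had 0.014, Spred3 0.0519 and Spry2 0.0993, and with quantile normalization Fgf23 had 0.0096. Leaving out single samples gave -0.0886 to 0.0304 for Fgf13, -0.1013 to 0.0342 for Fgf23, -0.0279 to 0.0565 for Spred2, -0.065 to 0.0137 for Spred3 and -0.1044 to 0.1106 for Spry2. The number of genes above background was 33 at the 90th and 20 at the 99th percentile of the receptor clusters.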
